A study of Mus musculus with 4 samples.

Results

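Genes that set the balance between mitochondrial division and fusion, 10 in number, were followed across the 4 arrays of the study: Dnm1l, Fis1, Mff, Mief1 and Mief2, which serve fission, and Mfn1, Mfn2, Opa1, Oma1 and Yme1l1, which serve fusion or its control. They were chosen by name, as the non-control probes whose gene name on the array equals one of these symbols. All 10 genes were present, with 25 of the 56224 probes that carry a gene name, and they stand among 36693 gene names in all. Of the 25 probes, 19 were well above background, by the scanner software's own flag, on all 4 arrays, and each of the 10 genes had at least 1 such probe.

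The cells were primary hepatocytes of C57BL/6 mice, harvested 24 hours after seeding on collagen-coated plates. The study compared Drp1LiKO hepatocytes, from mice in which the floxed Drp1 gene (Dnm1l) is recombined by Cre under the albumin promoter, with control hepatocytes, either untreated or treated with the saturated fatty acid palmitate at 200 μM. The methods describe the controls as Drp1 flox/flox sibling littermates and all animals as male, while the sample labels give wild-type as the source of both control samples and Drp1flox in the title of the palmitate control, and the age of the animals that gave the cells is not given in the sources used here. The albumin promoter acts mainly in hepatocytes, and other liver cells carried along in a hepatocyte preparation may keep the gene. There was 1 array for each of the 4 groups, control, Drp1LiKO, control palmitate and Drp1LiKO palmitate, so no group had a replicate. Per its label, the untreated control array shares its raw data with a sample deposited in a different series. Both untreated arrays lay on 1 slide and both palmitate arrays on another, so that palmitate and slide cannot be told apart, while each comparison of genotypes was made within a slide.

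Mitochondria divide when Drp1, a cytosolic dynamin-like GTPase, is recruited by adaptors in the outer membrane, forms a ring around the organelle and constricts it. They fuse when mitofusins tether and join outer membranes and Opa1 joins inner membranes, and Opa1 is itself cut by the inner membrane proteases Oma1 and Yme1l1, which shift it between its long and short forms. In the liver, loss of Drp1 is known for enlarged mitochondria. An expression array reads the messenger RNA of these genes and not the amount, the cutting or the location of the proteins.

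Probes of this array are 60 bases long, and the sequences below, read from the scanner tables, belong to probes of Dnm1l, Fis1, Opa1, Mief1 and Yme1l1 that the results come back to. They are written 5′ to 3′ in the sense of the transcript, with mm9 coordinates. The Dnm1l reading rests on the probe at chr16:16312363-16312422, minus strand, which begins at base 3974 of the Dnm1l transcript it was designed on and has no open frame. Its first 30 bases are shown, followed by the first 30 bases of the dim second Dnm1l probe at chr16:16336911-16336970, minus strand.
Dnm1l, bright probe: ctgatgtgttctgaaacatggagataattt
Dnm1l, dim probe: atttccagagaggtagatccagatggtaag

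Fis1 was read by a pair of bright probes at different places in the transcript. The 1 at chr5:137442037-137442096, plus strand, lies near the transcript end, and its last 30 bases are shown with the polyadenylation signal AATAAA in capitals. The other spans an intron, from chr5:137441507 to chr5:137441812, plus strand, and is shown whole because it reads joined exons.
Fis1, end probe: gcaatgagtgtaAATAAAattgggccgtgg
Fis1, junction probe: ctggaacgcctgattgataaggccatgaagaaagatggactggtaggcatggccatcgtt

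AATAAA, searched in the printed direction only, was found in 2 of the 25 member probes, the end probes of Fis1 and Oma1, and in 9.81% of all 60-base probes with a gene name. The Opa1 reading also came from a junction probe, from chr16:29629784 to chr16:29630207, plus strand. The dim Mief1 probe, at chr15:80080069-80080128, plus strand, is shown because it was lit on 1 array only. The second Yme1l1 probe, at chr2:23048648-23048707, plus strand, covers the protease domain, and the capitals, bases 17 to 31 of the probe, mark the 5 codons of the zinc-binding motif in its open frame.
Opa1, junction probe: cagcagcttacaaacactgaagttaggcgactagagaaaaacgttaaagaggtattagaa
Mief1, dim probe: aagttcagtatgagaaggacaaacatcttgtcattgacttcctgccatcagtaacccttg
Yme1l1, second probe: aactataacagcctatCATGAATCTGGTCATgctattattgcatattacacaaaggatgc

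Levels are given as log2 of the processed signal minus the 75th percentile of the same array, so that 0 is that percentile and 1 unit is a 2-fold step. Probes bind with different strength, and a level is therefore compared only with the same probe on another array. A gene is represented by its probe with the highest mean level among those well above background on at least 1 array, and other probes are named where they are used. The scanner software's error of each spot, carried into each difference, is given after ±. It covers the reading of the spot and not the spread between cultures or animals, which was not measured. For bright probes this error was near 0.144 log2 units on every array, so it acts as a fixed margin and not as a measured spread. Repeat spots of the same probe had a median standard deviation between 0.034 and 0.038 log2 units on an array. A log2 difference of at least 1 in either direction is called past the 2-fold threshold. The pairwise comparisons carry no test. The 75th percentile lay at an intensity between 420 and 537, the share of probes well above background lay between 44.7% and 51.1%, and 0 spots were saturated. Gapdh, a glycolytic enzyme used as a reference, differed by −0.08 between genotypes without palmitate and by −0.11 with it.

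Dnm1l, which encodes Drp1, was lower in the Drp1LiKO cells in both conditions, and no other member passed the 2-fold threshold at the probe that represents it. With all probes of a gene averaged, those below background included, Dnm1l lay at −0.85 without palmitate and −0.60 with it and was inside the threshold, while Mief1 passed it without palmitate at 1.72. The level of Dnm1l was 2.44 in control, 1.09 in Drp1LiKO, 2.44 in control palmitate and 1.02 in Drp1LiKO palmitate cells. Both control arrays lay above both Drp1LiKO arrays, and the arrays of 1 genotype lay close together. The log2 difference was −1.35 ± 0.20 without palmitate and −1.42 ± 0.20 with it, which put the Drp1LiKO signal at 39.1% and 37.3% of the control signal. Among the genes tested, 3.62% lay lower than Dnm1l in the first comparison and 2.62% in the second. A signal remained on both Drp1LiKO arrays, at intensities of 1139 and 941. The deleted part of the gene is not given in the sources used here, and the probe may lie outside it, so the reading checks the amount of transcript with this end and not the deletion itself. In a culture of mixed cells, fewer cells of a type and less RNA per cell cannot be told apart.

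The second Dnm1l probe was dim. Its level was −4.39 on the control array and −4.74 on the Drp1LiKO array, a log2 difference of −0.35 ± 0.43, and it was not well above background on either palmitate array. The direction without palmitate was that of the bright probe, but the difference was smaller than its error.

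**Figure D1:**
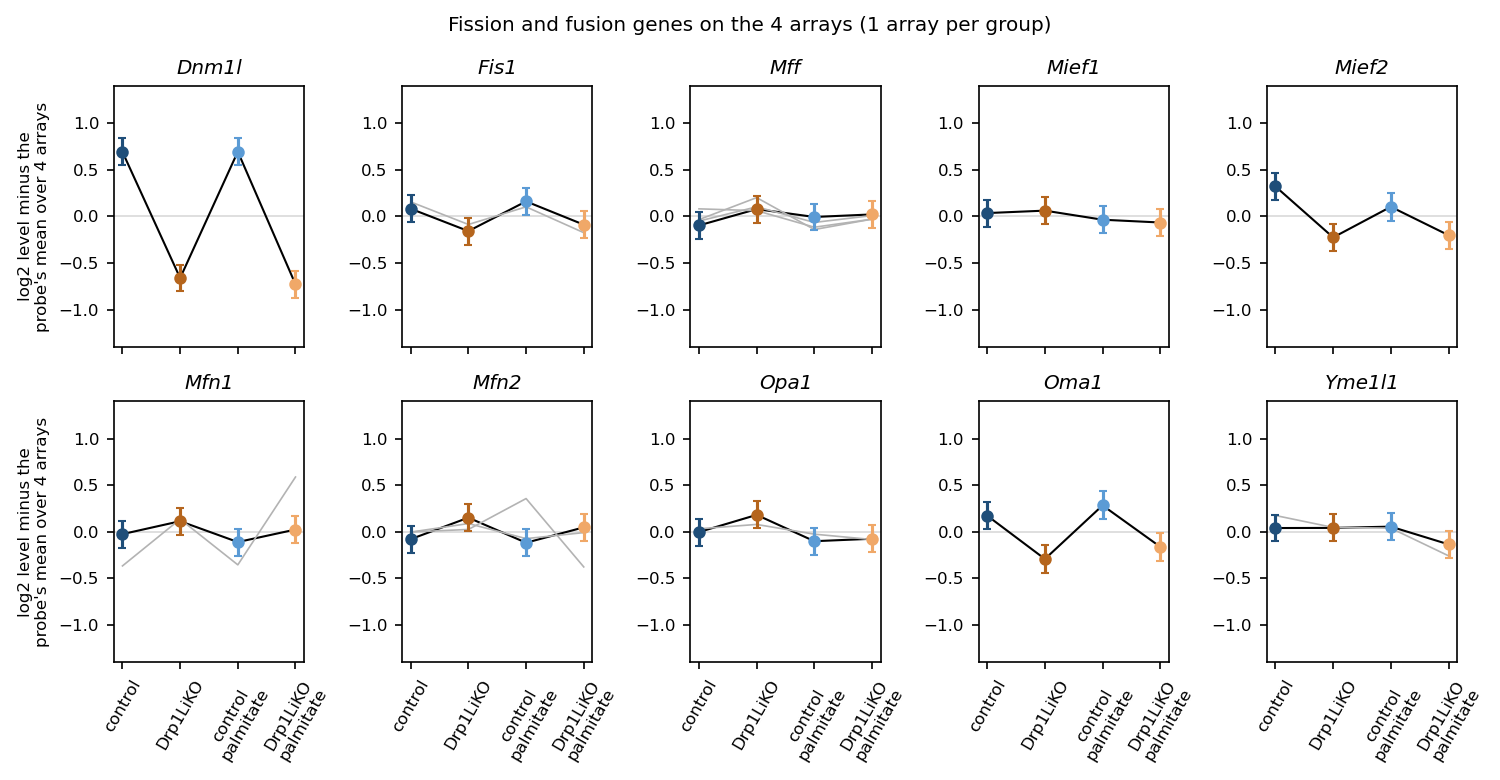
Level of each of the 10 genes on the 4 arrays, as log2 level minus the probe's own mean over the 4 arrays. Coloured points and the black line show the probe that represents the gene, bars the scanner error of the spot, and grey lines the gene's other probes that were well above background on all 4 arrays. Dnm1l alternates between the genotypes, from 2.44 to 1.09 and from 2.44 to 1.02 before centring, while most bright probes of the other genes stay near 0.

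Counted over the 10 genes, 1 of 10 passed the 2-fold threshold between genotypes without palmitate, against 14.4% of the 19802 genes tested, and 1 of 10 with palmitate, against 11.4% of 18820. Past a log2 difference of 0.5 there were 2 of 10 without palmitate, Dnm1l and Mief2, against 31.1% of all genes, and 1 of 10 with palmitate, against 25% of all genes. The median difference of the 10 was 0.01 without palmitate and −0.11 with it, beside −0.02 and −0.03 over all genes. Without Dnm1l, the 9 differences ran from −0.55 to 0.23 in the first comparison and from −0.44 to 0.16 in the second. All 10 representing probes were well above background on both arrays of each comparison, and among genes with that property 7.83% passed the 2-fold threshold without palmitate and 5.56% with it. The members' share lay near these backgrounds in both comparisons. The shares of all genes past 0.5 also take in genes that were dim on an array of the comparison. Over all genes without palmitate, 1745 lay higher and 1104 lower past the threshold, so that 61.2% of the calls were higher, or 49.9% with each array centred on its median. That centring moved the median of all genes by −0.18 without palmitate and by −0.16 with it.

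**Figure D2:**
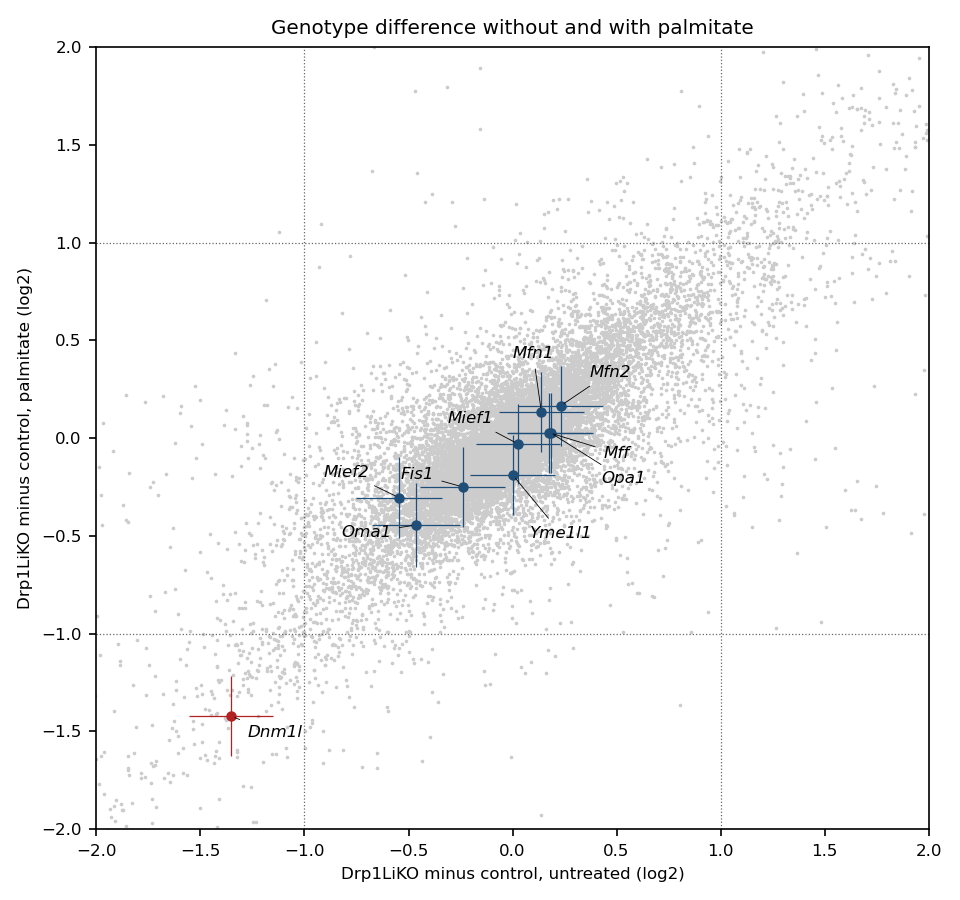
Drp1LiKO minus control without palmitate (x axis) and with palmitate (y axis), in log2 units, for each member with its scanner error and, in grey, for the 16563 genes that passed the background flag 4 times; 254 of them lie beyond the axes, which end at 2 in each direction. Dotted lines mark the 2-fold threshold. Dnm1l sits at −1.35 and −1.42, and the other 9 members lie inside the threshold on both axes.

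Among the adaptors that bring Drp1 to the outer membrane, Fis1 and Mief2 were lower in the Drp1LiKO cells in both comparisons. The brightest Mff probe and the bright Mief1 probe differed by less than their scanner error. The end probe of Fis1 read 5.66 in control, 5.42 in Drp1LiKO, 5.73 in control palmitate and 5.48 in Drp1LiKO palmitate cells. Both Drp1LiKO arrays lay under both control arrays. The difference was −0.24 ± 0.20 without palmitate and −0.25 ± 0.20 with it. Lower than Fis1 lay 27.5% of the genes tested in the first comparison and 22.9% in the second. The junction probe gave −0.24 ± 0.20 and −0.28 ± 0.20, so that both Fis1 probes put the Drp1LiKO signal at 82.5% to 84.7% of the control.

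Mff is the adaptor held to recruit most Drp1 in mammalian cells. Its brightest probe read 3.53, 3.71, 3.62 and 3.65 on the control, Drp1LiKO, control palmitate and Drp1LiKO palmitate arrays, which gave differences of 0.18 ± 0.20 and 0.03 ± 0.20. The other 3 probes well above background on all arrays gave 0.15, 0.24 and −0.02 without palmitate and 0.07, 0.11 and 0.09 with it. The difference of 0.24 ± 0.20, from a probe that spans an intron, was the only one of these to exceed its error, and with each array centred on its median the brightest probe's differences were −0.01 and −0.13.

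Mief1 and Mief2 encode MiD51 and MiD49, adaptors that bind Drp1 without Mff. The bright Mief1 probe read 2.67, 2.70, 2.60 and 2.57 in the same order of arrays, with genotype differences of 0.03 ± 0.20 and −0.03 ± 0.20. The dim Mief1 probe printed above was well above background on the untreated Drp1LiKO array alone, at −2.31, against −5.73, −6.32 and −6.57 on the control, control palmitate and Drp1LiKO palmitate arrays. Against the lowest signal that counted as well above background there, it was at least 5.31-fold higher on the untreated Drp1LiKO array than on the control array, and at least 4.58-fold higher than on the Drp1LiKO palmitate array. The bright probe of the same gene showed no such step. The surrounding spots were then looked at, a check chosen after these values were seen, counting a spot as lit alone when it was well above background on 1 array only and exceeded the other arrays by at least 1.5 log2 units. Of the 24 nearest spots, 1 was lit alone on that array, beside a mean of 0.14 around all spots. At least as many were found around 7.91% of spots, and the part of this in the reading was not tested.

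Mief2 had 1 probe. It read −0.54 in control, −1.08 in Drp1LiKO, −0.75 in control palmitate and −1.06 in Drp1LiKO palmitate cells. Both Drp1LiKO arrays lay under both control arrays, with differences of −0.55 ± 0.21 and −0.30 ± 0.21, or 68.5% and 81% of the control signal. Lower than Mief2 lay 12.5% of the genes tested in the first comparison and 18.5% in the second. On the Drp1LiKO palmitate array 3 of the 24 nearest spots were lit alone, beside a mean of 0.13. At least as many were found around 0.54% of spots, and the part of this was not tested.

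The mitofusins, the GTPases that join outer membranes, lay slightly higher in the Drp1LiKO cells at their bright probes, but Mfn1 lay slightly lower once each array was centred on its median. Mfn1 read 2.40, 2.54, 2.32 and 2.45 on the control, Drp1LiKO, control palmitate and Drp1LiKO palmitate arrays. Its differences were 0.14 ± 0.20 and 0.13 ± 0.20, and with each array centred on its median they were −0.04 and −0.02. The second Mfn1 probe was dim, at −3.35, −2.85, −3.34 and −2.40, and its differences were 0.50 ± 0.24 and 0.94 ± 0.27. The probes of Mfn1 thus differ in the size of the genotype difference.

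Mfn2, which also tethers mitochondria to the endoplasmic reticulum, read 2.36, 2.59, 2.32 and 2.48 on the control, Drp1LiKO, control palmitate and Drp1LiKO palmitate arrays at its brightest probe. The differences were 0.23 ± 0.20 and 0.16 ± 0.20, and with each array centred on its median they were 0.05 and 0.01. The second bright probe gave 0.09 ± 0.20 and 0.06 ± 0.20. A dim further probe, designed on another transcript, gave 0.03 ± 0.25 without palmitate and −0.73 ± 0.29 with it.

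Of the inner membrane genes, Opa1 and Yme1l1 differed by less than their scanner error at their brightest probes, and Oma1 was lower in the Drp1LiKO cells in both conditions. Opa1, the GTPase that fuses inner membranes and holds cristae, read 1.95, 2.13, 1.85 and 1.88 at the junction probe, in the order control, Drp1LiKO, control palmitate and Drp1LiKO palmitate. The differences were 0.18 ± 0.20 and 0.03 ± 0.20, and those of the second probe, near the transcript end, were 0.05 ± 0.20 and −0.06 ± 0.21. None of these exceeded its error.

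Oma1, the stress-activated protease that cuts Opa1 to its short forms, had 1 probe well above background. It read −1.44 in control, −1.90 in Drp1LiKO, −1.33 in control palmitate and −1.77 in Drp1LiKO palmitate cells, so that both Drp1LiKO arrays lay under both control arrays. The differences were −0.46 ± 0.21 and −0.44 ± 0.21, or 72.5% and 73.5% of the control signal. Of all genes tested, 14.9% lay lower in the first comparison and 12% in the second.

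Yme1l1, the protease that cuts Opa1 in resting cells, read 2.68, 2.68, 2.70 and 2.51 on the control, Drp1LiKO, control palmitate and Drp1LiKO palmitate arrays. The differences were 0.00 ± 0.20 and −0.19 ± 0.20. The second probe, over the zinc-binding motif, gave −0.13 ± 0.20 and −0.30 ± 0.20, with its lowest level, 0.85, on the Drp1LiKO palmitate array. A further probe each of Mff, Oma1, Opa1 and Yme1l1 was not well above background on any array.

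Fitted over all 4 arrays with genotype and palmitate as additive terms (limma, Benjamini-Hochberg adjustment over 20525 genes), the genotype difference was called in 0% of genes and in none of the 10, with 5359 genes at an unadjusted p under 0.05. This fit has 1 residual degree of freedom, which holds any interaction as well as noise. Its only repeats of a genotype are the untreated and the palmitate array, so its p values do not measure the spread between animals. Dnm1l had a fitted difference of −1.39 ± 0.07 (SE) and a limma adjusted p of 0.119. The smallest adjusted p of any gene had this value too. The adjustment gives it as a tie to more genes than Dnm1l, so it does not rank Dnm1l first. The call depends on the setting. Restricted to the 16563 genes that passed the background flag 4 times, limma called 15.3% of genes and 2 members, Dnm1l at an adjusted p of 0.0164 and Oma1 at 0.0449. With normexp background correction limma called 7.52% of genes and 1 member, Dnm1l, at an adjusted p of 0.0271. When the variance was allowed a trend with intensity, 25.7% of genes were called by limma, with 4 members: Dnm1l at an adjusted p of 0.000367, Fis1 at 0.02, Oma1 at 0.0324 and Mief2 at 0.0361. The 4 were lower in Drp1LiKO, with fitted differences of −1.39, −0.24, −0.45 and −0.43, each in 2 of 2 conditions. Mff, Mief1, Mfn1, Mfn2, Opa1 and Yme1l1 were not called under any of the 10 settings, with lowest adjusted p values between 0.108 and 0.402.

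At the probes that represent them, palmitate left all 10 genes inside the 2-fold threshold in both genotypes. In control cells 0 of 10 passed it, against 5.63% of the 18703 genes tested, and 0 of 10 passed a log2 difference of 0.5, against 12.7%. In Drp1LiKO cells the counts were again 0 of 10 at both thresholds, against 6.99% and 17.5% of 19676 genes. Among genes well above background on both arrays, as all 10 were, the shares past the 2-fold threshold were 1.11% in control cells and 2.4% in Drp1LiKO cells. The shares past 0.5 also take in genes that were dim on an array of the comparison. The differences ran from −0.22 to 0.11 in control cells, with a median of −0.02, and from −0.26 to 0.13 in Drp1LiKO cells, with a median of −0.08, beside medians of 0.00 and 0.00 over all genes. Dnm1l differed by 0.00 ± 0.20 in control cells and by −0.07 ± 0.20 in Drp1LiKO cells. In each genotype, 1 of the 10 differences exceeded its scanner error: Mief2 at −0.22 ± 0.21 in control cells and Opa1 at −0.26 ± 0.20 in Drp1LiKO cells. The second Opa1 probe gave −0.16 ± 0.20 in Drp1LiKO cells. Over the 19 probes measured on all arrays, 2 differences exceeded their error in control cells and 5 in Drp1LiKO cells. Among the latter were the second Yme1l1 probe at −0.30 ± 0.20 and the dim Mfn1 probe at 0.45 ± 0.23. The dim Mief1 probe is not among these 19. It was at least 4.58-fold lower on the Drp1LiKO palmitate array than on the untreated Drp1LiKO array, the only array where it was well above background.

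**Figure D3:**
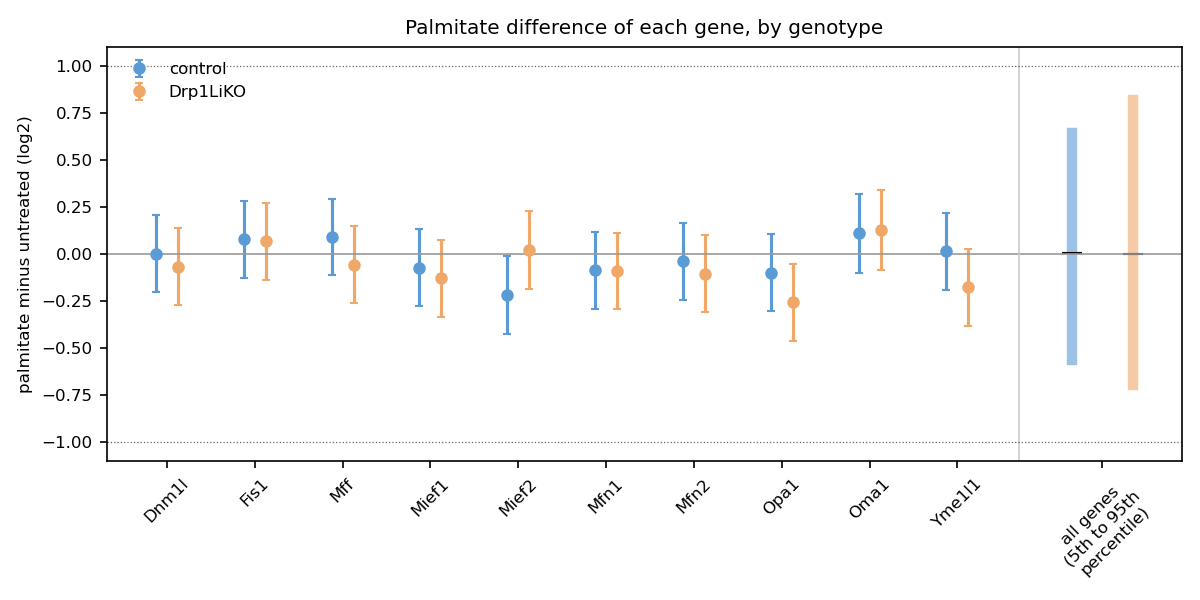
Palmitate minus untreated, in log2 units, for each member in control cells (blue) and Drp1LiKO cells (orange), with the scanner error of the difference; the broad bars at the right span the 5th to 95th percentile of all genes tested and black marks their medians. All points lie between −0.26 and 0.13, inside the dotted 2-fold lines.

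The genotype difference with palmitate was then set against that without it. At the brightest probes it ran from −0.19 for Yme1l1 to 0.24 for Mief2, and 0 of 10 exceeded their scanner error, which was near 0.29. None reached 1, against 1.79% of the 16563 genes that passed the background flag 4 times, and none reached 0.5, against 9.7%. Of the 19 probes measured on all arrays, 2 exceeded their error, the dim Mfn2 probe at −0.76 ± 0.39 and the dim Mfn1 probe at 0.44 ± 0.36. With 1 array in each group this contrast has no test.

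The rest of the machinery was described by 5 lists: accessory fission factors, accessory fusion factors, cristae organisers, transport and endoplasmic reticulum tethers, and enzymes that modify Drp1. Of their genes, 60 were well above background on both arrays of each comparison. Past the 2-fold threshold between genotypes there were 1 higher and 2 lower without palmitate and 0 higher and 2 lower with it, and the median differences were 0.01 and −0.03. The shares among all genes well above background on both arrays were 7.83% and 5.56%, as given above.

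The accessory fission list had 9 genes measured of 10, Gdap1 being not well above background on any array. Its median difference was 0.09 in both conditions, and 0 of 9 passed the 2-fold threshold in either. Spire1, an actin nucleator at contacts of mitochondria with the endoplasmic reticulum, was the highest without palmitate, at 0.67, and was 0.25 with it. Mtfp1, an inner membrane protein whose loss hinders fission, was 0.57 and 0.62. Mtfr1 was the lowest, at −0.13 and −0.10. Dnm2, the classical dynamin related to Drp1, read 4.40, 4.64, 4.73 and 4.81 on the control, Drp1LiKO, control palmitate and Drp1LiKO palmitate arrays, with genotype differences of 0.23 and 0.09. Dnm1 differed by 0.26 and 0.53, and Dnm3 was not well above background on any array.

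The accessory fusion list had a median of −0.16 over 12 genes without palmitate and −0.11 over 11 with it, and 0 passed the 2-fold threshold in either. Miga2, an outer membrane protein that promotes fusion, differed by −0.34 and −0.37. The highest in the untreated comparison was Usp30, a mitochondrial deubiquitinase, at 0.16, with 0.27 under palmitate. Pld6, a mitochondrial phospholipase, was the lowest at −0.66, but its probe passed the background flag in untreated control cells alone. The 11 cristae genes had medians of −0.05 and −0.02 and ran from Micos13, at −0.29 and −0.36, to Chchd6, at 0.26 and 0.19, both subunits of the MICOS complex.

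The 10 transport and tether genes had medians of 0.13 and 0.09, with 0 past the 2-fold threshold. Trak1, which links mitochondria to kinesin, read −0.68, 0.10, −0.59 and −0.40 on the control, Drp1LiKO, control palmitate and Drp1LiKO palmitate arrays. It was higher on the untreated Drp1LiKO array than on the other arrays, and its genotype difference was 0.78 without palmitate and 0.18 with it. Pdzd8, a tether of the endoplasmic reticulum, was the lowest, at −0.49 and −0.25. With palmitate the highest was Pacs2, at 0.37.

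Of the 19 enzymes that modify Drp1, 1 was past the threshold upward and 2 downward without palmitate, and 0 upward and 2 downward with it; the list medians were 0.02 and −0.08. The 2 lower genes were the mitotic pair that phosphorylates Drp1 at division, Cdk1 and its partner cyclin B1 (Ccnb1). Cdk1 read 0.42, −0.91, 0.37 and −0.95 on the control, Drp1LiKO, control palmitate and Drp1LiKO palmitate arrays, a difference of −1.33 and −1.32. Ccnb1 read −0.01, −2.05, 0.18 and −1.61, a difference of −2.04 and −1.80. In both genes each Drp1LiKO array lay under each control array.

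Pim1, a serine/threonine kinase, was higher in the Drp1LiKO cells, at 1.73, 2.97, 1.88 and 2.74 on the same 4 arrays, with differences of 1.24 and 0.86. Gsk3b, a kinase that phosphorylates Drp1, read 1.81, 2.74, 1.73 and 1.62 in that order. Its genotype difference was 0.94 without palmitate and −0.12 with it, and its palmitate difference in Drp1LiKO cells, −1.13, was the only call past the 2-fold threshold among the 60 genes in either palmitate comparison. The high value rested on the untreated Drp1LiKO array alone.

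**Figure D4:**
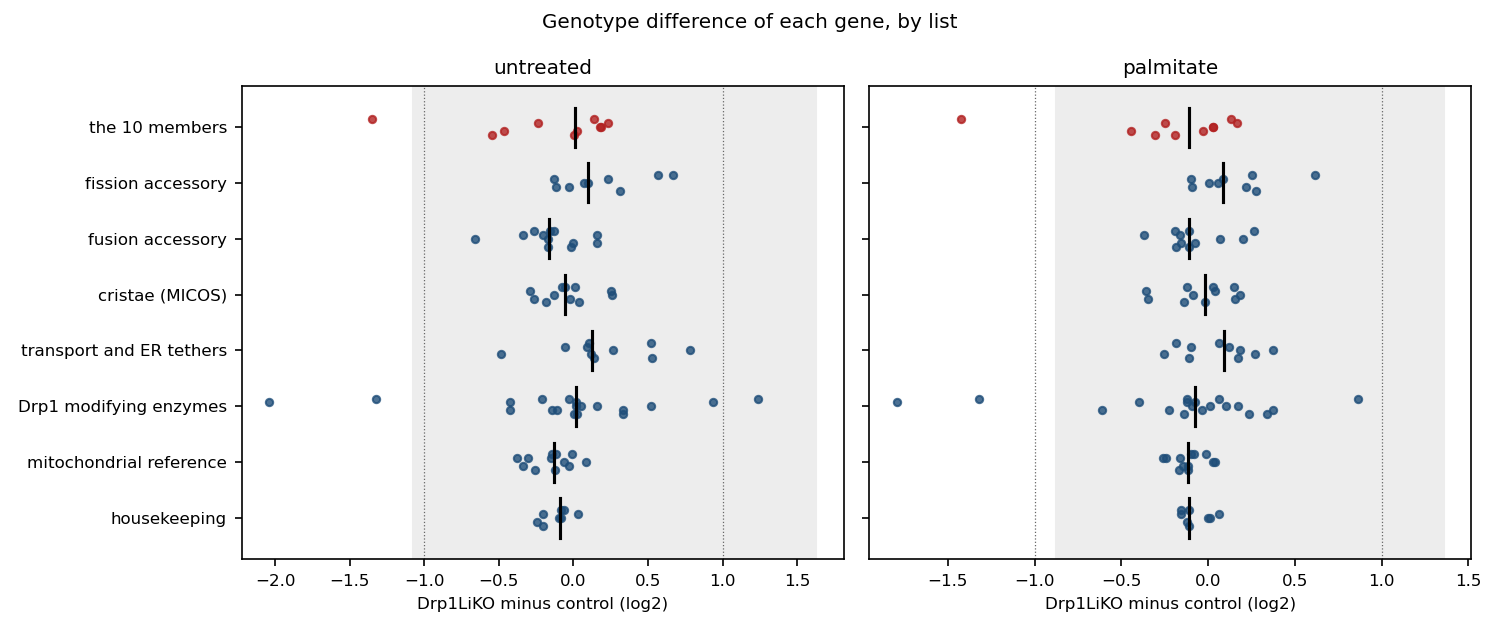
Drp1LiKO minus control, in log2 units, for each tested gene of the 10 members, the 5 lists of other dynamics genes, 12 other mitochondrial genes and 8 housekeeping genes, without palmitate (left) and with palmitate (right). Black ticks mark list medians, the grey band spans the 5th to 95th percentile of all genes tested and dotted lines mark the 2-fold threshold. Dnm1l, Cdk1 and Ccnb1 lie below the lower line in both panels.

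The 12 other nuclear-encoded mitochondrial genes, among them Vdac1, Tomm20 and Cox4i1, had a median genotype difference of −0.13 without palmitate and −0.11 with it, and 8 housekeeping genes had −0.09 and −0.11. None of these passed the 2-fold threshold. The lowest of the mitochondrial genes was Tfam, the factor that packages mitochondrial DNA, at −0.38 and −0.26.

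The genes whose pattern over the 4 arrays lay nearest to that of Dnm1l were found by the distance between values centred on each gene's own mean, among the 16563 genes that passed the background flag 4 times. The nearest were Tk1, the cytosolic thymidine kinase of S phase, at a distance of 0.03, then Ska3, a kinetochore protein, at 0.05, Hmgn3, a nucleosome-binding protein, at 0.07, Cdk1 at 0.08, and Stxbp6, a syntaxin-binding protein, at 0.09. Tk1 read 1.54, 0.15, 1.55 and 0.12 on the control, Drp1LiKO, control palmitate and Drp1LiKO palmitate arrays. Counting Dnm1l itself, 125 of these genes were as low as Dnm1l or lower in both genotype differences.

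**Figure D5:**
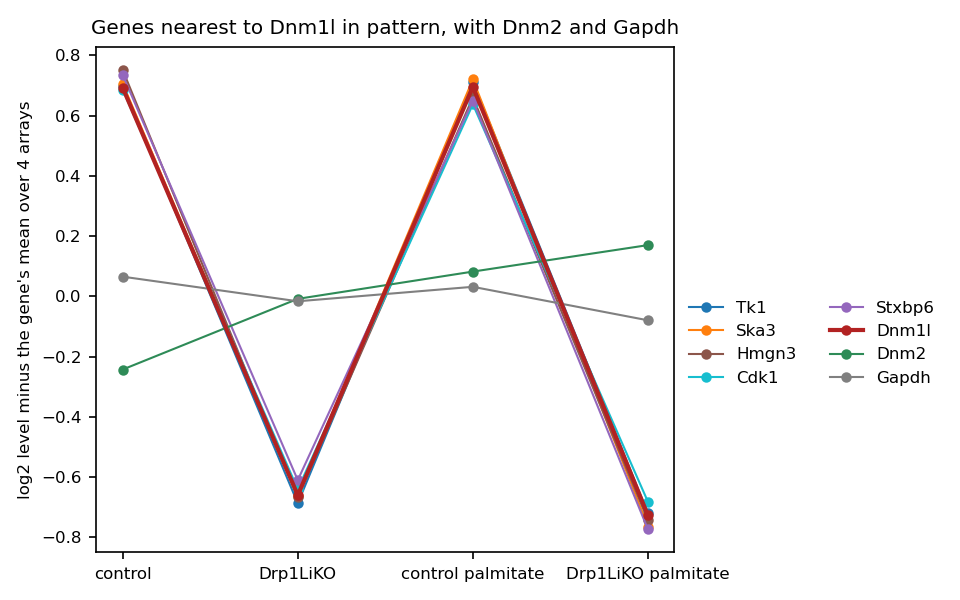
Log2 level minus the gene's own mean over the 4 arrays for Dnm1l, the 5 genes nearest to it in pattern, Dnm2 and Gapdh. Dnm1l and the 5 nearest genes lie between 0.6 and 0.8 on both control arrays and between −0.6 and −0.8 on both Drp1LiKO arrays, while Gapdh differs by −0.08 and −0.11 between genotypes.

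Marker genes of liver cell types were set beside these readings, since cells other than hepatocytes also express mitochondrial dynamics genes. All 8 hepatocyte markers were well above background on all arrays. Their summed level, in units of the array's 75th percentile, lay between 1271 and 1307, mostly from Serpina1a and Alb, and 6 of 8 were higher in Drp1LiKO without palmitate and 5 of 8 with it. Tat, a tyrosine-degrading enzyme, differed by 1.5 and 1.22, Cps1, of the urea cycle, by 0.94 and 1.11, and Cyp2e1, a cytochrome P450, by −0.66 and −0.72.

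Macrophage markers were higher in Drp1LiKO in 7 of 7 tested without palmitate and in 6 of 6 with it, with median differences of 2.43 and 1.72, and their summed level went from 7.48 to 26.7 and from 9.47 to 26.1. Endothelial markers were higher in 8 of 8 and in 6 of 7, with medians of 2.02 and 1.05 and sums going from 1.19 to 3.71 and from 1.17 to 2.19. Stellate markers were higher in 7 of 7 and in 6 of 6, with medians of 3.02 and 1.91. Their sum was mostly Acta2, which differed by 0.22 and 0.02, and without Acta2 it went from 1.07 to 10.9 and from 1.21 to 13.2.

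Of the cholangiocyte markers, 2 of 4 were higher without palmitate and 1 of 4 with it, with medians of 0.04 and −0.40. Their sum, mostly Spp1, went from 61.2 to 42.2 and from 57.6 to 44, and without Spp1 from 9.71 to 8.28 and from 6.04 to 5.01. Neutrophil markers were higher in 1 of 2 and in 3 of 3, of which 1 and 2 passed 2-fold. Their sum over the 4 arrays lay between 1.38 and 2.02, and without Elane it went from 0.06 to 0.19 and from 0.11 to 0.49. Lymphocyte markers were higher in 1 of 2 and in 2 of 3, of which 1 and 2 passed 2-fold, and their sums lay between 0.57 and 0.93. These sums were mostly Cd3e, which differed by −0.09 and −0.21. Without Cd3e the sum went from 0.05 to 0.44 and from 0.05 to 0.29. Each lymphocyte marker other than Cd3e passed the background flag on 1 array at most. Timd4, Des, Epcam, Cftr, S100a9 and Mpo failed the background flag on every array. The part of these cells in the readings of the 10 genes, among them the remaining Dnm1l signal, was not tested.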

How the data were processed

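Total RNA of 4 hepatocyte cultures was labelled with Cy3 and hybridised to an Agilent 60K mouse array. Per the file headers, Feature Extraction 10.7.1.1 made the deposited intensity values, on a linear scale, with background subtraction and no scaling between arrays; the submitters' processing notes name version 9.5.1.1. The authors also deposited a processed intensity table, which had the rank order of each array and 1 shared distribution, as quantile normalization gives, and was tried as an alternative. The methods and the labels differ in the RNA kit they name.

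Control and outlier spots were left out and repeat spots averaged (Python 3.11.15, R 4.3.3, limma 3.58.1). The genes named were all members with every probe, list genes past the 2-fold threshold with both arrays above background, the highest and lowest of each list, the 5 nearest to Dnm1l, the dynamins and Gapdh. The members and lists were chosen with earlier results of these data known. The limma code was tested on simulated data. The alternatives were median centring, quantile scaling, a percentile over detected probes, normexp, the authors' table, stricter and no filters, the mean of a gene's probes, a variance trend and a floor at background. Precision is limited by the number of arrays, 1 in each group. A marker gene is not reported here.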

Additional observations from a re-analysis of the deposited data

Results flagged for a closer look

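The dimmest of the Mfn2 probes differed by 0.36 ± 0.27 between palmitate and untreated control cells and by −0.40 ± 0.28 in Drp1LiKO cells, so that the genotypes moved in opposite directions, with a difference of −0.76 ± 0.39 between them. The difference was not tested, since each group had 1 array. The intensities behind it were 54.5, 62.1, 61.1 and 40.7 on the control, Drp1LiKO, control palmitate and Drp1LiKO palmitate arrays. The brighter Mfn2 probes gave −0.04 and −0.07 in control cells and −0.10 and −0.10 in Drp1LiKO cells.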

How the results depend on the processing

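No paired analysis was possible because the labels number no replicates and each group had 1 array. The slides pair the genotypes, and the limma fit with palmitate as a term compares them within slides. Leaving out an array left no residual degree of freedom. Fis1, Mief2 and Oma1 were lower in Drp1LiKO in both conditions under every alternative run, except that Oma1 was 0.23 higher with palmitate when all its probes were averaged. The stricter filter and no filter kept the same probe and scaling for each member, so they could not change a member value. Mief2 had 1 probe, so averaging could not change it either. Over the alternatives 381 member values, those that could not change included, moved by less than their error. The 19 others moved by more on averaging every probe of a gene, which includes probes below background. That average put Dnm1l at −0.85 without palmitate and −0.60 with it. It left 0 members past the 2-fold threshold between genotypes with palmitate, and 1 member (Mief1) past it for palmitate in Drp1LiKO, at −2.19, and 1 (Mief1) for the difference of genotype differences, at −1.86, where 450 genes passed. Without palmitate the 1 member past the threshold was then Mief1, at 1.72. Genes past the threshold in the genotype comparison without and with palmitate, the palmitate comparison in control and Drp1LiKO cells and the difference of differences numbered 1039, 679, 302, 405 and 131 with normexp, and 4636, 3890, 2845, 3478 and 4830 without a filter. With probes above background on both arrays the first 4 were 1378, 931, 187 and 428. In limma, normexp called 1544 genes and 1 member, the filter on all arrays 2537 and 2, and the intensity trend 5272 and 4, where the reported fit called 0 and 0. Low signal limits the dim probes.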
